A study of Mus musculus with 8 samples.

Results

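The BCL2 family apoptosis regulators described here are 10 genes, of which Bcl2, Mcl1 and Bcl2l1 protect cells from death and Bax, Bak1, Bcl2l11, Pmaip1, Bbc3, Bid and Bmf promote it. They were taken from gene expression arrays of regulatory T cells (Foxp3+ T cells that restrain immune responses) sorted from mice. The members are the probe sets that the deposited annotation assigns to the Entrez identifier of a listed gene and to no other gene. All 10 genes were found, with 31 of the 45037 probe sets that are not controls. No measured value entered this assignment of probe sets, but the genes were listed with earlier results of these data known. Bcl2l11 and Bcl2 have 5 probe sets each, Mcl1 has 6, Bcl2l1 has 4, Bid and Bmf have 3, Bak1 has 2, and Bax, Bbc3 and Pmaip1 have 1.

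The cells were CD4+CD25+ T cells of untreated mice aged 14 to 17 weeks, sorted by a red (RFP) and a green (GFP) fluorescent reporter. All samples were RFP+ and differed in GFP. The labels call the GFP-RFP+ cells peripherally induced and the GFP+RFP+ cells thymically induced, and the title of the study places the question in the intrathymic or extrathymic origin of these cells. The sources used here do not name the reporter alleles, their promoters or the mouse strain. Each population was sorted from lymph nodes and from spleen, with the organs of 20 mice pooled, so there were 4 groups. Each group was measured on 2 Affymetrix Mouse430_2 arrays from 50 ng of RNA, and the labels call the arrays of a group technical replicates. The spread between mice or between sorts was therefore not measured, and the population comparison is repeated only across organs.

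Proteins of the BCL2 family decide whether the outer membrane of the mitochondrion stays closed. Bax and Bak1 form the pores that release cytochrome c, pro-survival members such as Bcl2, Bcl-xL (from Bcl2l1) and Mcl1 hold them in check, and the BH3-only proteins Bim (from Bcl2l11), Noxa (Pmaip1), Puma (Bbc3), Bid and Bmf bind the pro-survival members or activate Bax and Bak1. Noxa binds chiefly Mcl1 among the pro-survival members described here, whereas Bim and Puma bind all of them. In mouse regulatory T cells, Mcl1 is known to be needed for survival and Bim to set the rate of loss when interleukin 2 is short.

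Expression values are log2(signal + 1) of the dChip model-based signal. Probe sets bind with different strength, so levels were compared between arrays for the same probe set and not between genes. Of all 45037 probe sets, 53.3% to 56.2% were called present on an array. Over all probe sets, technical replicates correlated at 0.974 to 0.979 and other pairs of arrays at 0.959 to 0.974. Of 8 markers of regulatory T cells, 7 were called present on all 8 arrays, Foxp3 among them, and Cd3e was called present on 7. Markers of other cells were also measured, and those of myeloid, erythroid, B and natural killer cells summed to more in spleen. The summed linear signal of 4 myeloid markers was 111 to 136 on the lymph node arrays, 1048 to 1469 in spleen GFP-RFP+ cells and 774 to 1055 in spleen GFP+RFP+ cells, with Lyz2 and Csf1r present on all 8 arrays. That of 4 erythroid markers was 26.4 to 34.9 in lymph nodes, 426 to 505 in spleen GFP-RFP+ cells and 199 to 328 in spleen GFP+RFP+ cells, with Hba-a1 absent on all 8. The sum of 4 B cell markers was 140 to 148 and 214 to 215 in lymph node GFP-RFP+ and GFP+RFP+ cells, and 372 to 553 and 342 to 511 in the same cells of spleen, with Pax5 absent on all 8 arrays. The 3 natural killer cell markers summed to 26.5 to 32.2 on the lymph node arrays and to 33.05 to 38.3 on the spleen arrays. The 2 CD8 T cell markers summed to 135 to 191 over all arrays. The part of these cells in the member values below was not tested.

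Pmaip1 differed most between the populations and was about 4-fold lower in GFP+RFP+ than in GFP-RFP+ cells of both organs. Bcl2 and Bcl2l11, a pro-survival and a pro-death member, were both higher in GFP+RFP+ cells, by 1.43-fold to 1.78-fold over the 5 probe sets of Bcl2 and by 1.11-fold to 1.60-fold over the 5 of Bcl2l11. The 6 probe sets of Mcl1 disagreed in direction. Bax, Bak1, Bbc3, Bid and Bmf differed by at most 1.24-fold in the mean over both organs, whichever probe set was read. Within an organ the differences of their probe sets present on all 8 arrays, or on 7 for Bmf, reached 1.23-fold, and those of the dimmer probe sets reached 1.79-fold.

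These differences were tested with limma after averaging the arrays of each group, which leaves 4 values and 1 residual degree of freedom. No probe set passed an adjusted p of 0.05 for the population (0% of 45037), and so none of the 31 member probe sets did, with adjusted p from 0.25 to 0.98. At an unadjusted p of 0.05, 7714 probe sets (17.1%) passed, 8 of them members: the 5 of Bcl2, 2 of Bcl2l11 and that of Pmaip1. The outcome of the averaged fit depended on the dim probe sets: without the 40% of lowest level, 3 of the 26 members left passed (9.4% of 27022 probe sets), Pmaip1 1418203_at, Bcl2l11 1435448_at and Bcl2 1443837_x_at, with limma adjusted p of 0.016, 0.043 and 0.048. An exact permutation test of 2 against 2 values that ignores the organs cannot give a two-sided p below 0.333. Swapping the populations only within an organ allows fewer arrangements still. When limma was run with the 8 arrays as separate samples, 9 member probe sets passed (10.7% of all probe sets did), 8 higher in GFP+RFP+ cells (3.26% of all probe sets were) and 1 lower (7.46%). The 8 were 5 of Bcl2, 2 of Bcl2l11 and 1 of Mcl1, so repeated probe sets of the same genes make up most of this count. Of the other Mcl1 probe sets, 2 were lower. The p-values of the fit with 8 arrays rest on the spread between technical replicates and on the disagreement between the organs, with no separate mice or sorts. Because RNA of whole sorted populations was measured, fewer cells that express a gene and less RNA per cell cannot be told apart.

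**Figure D1:**
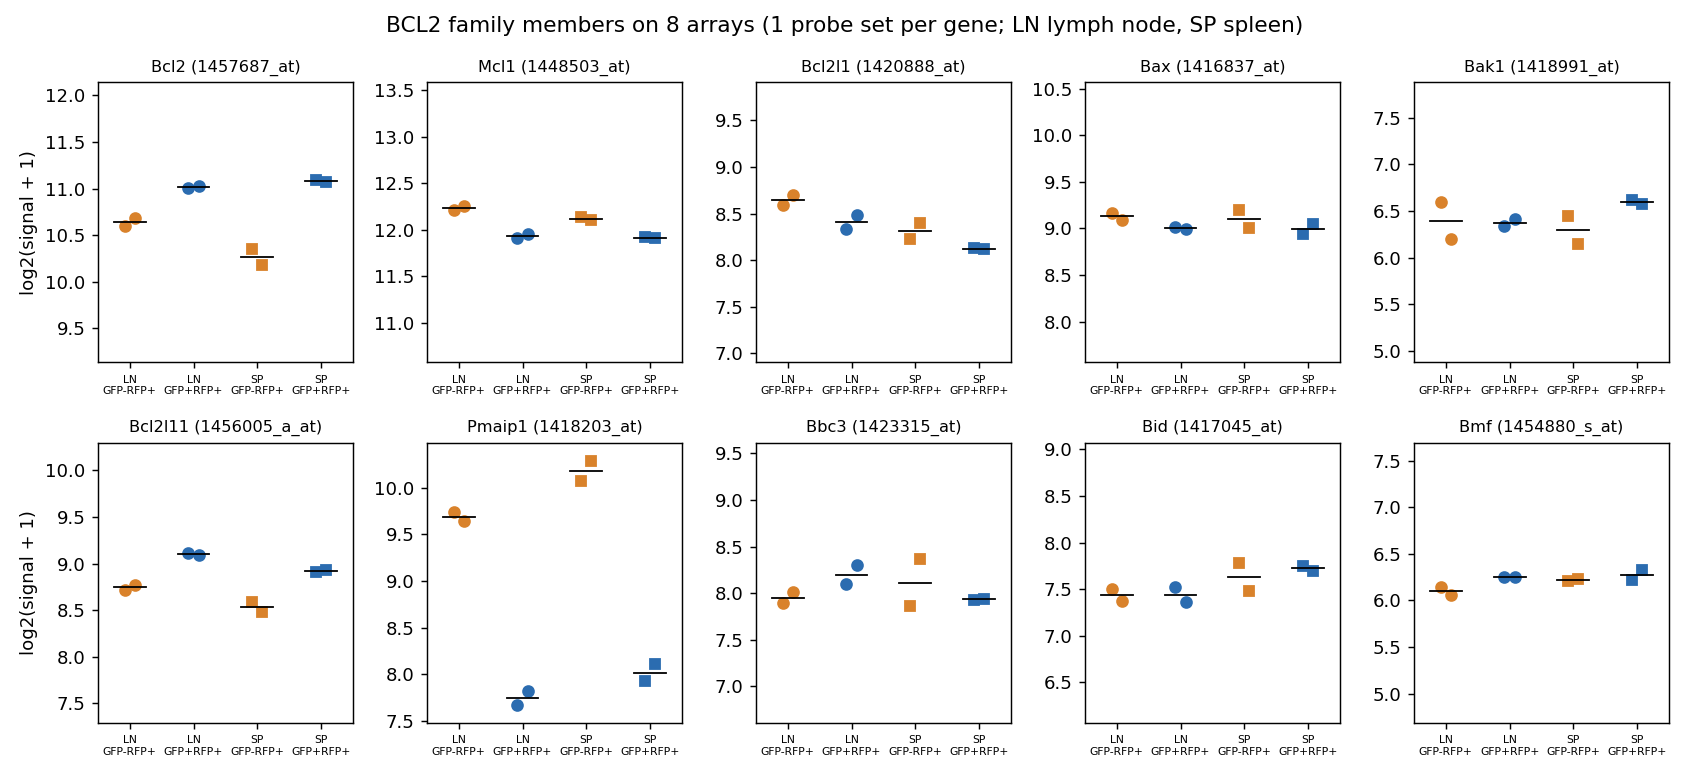
Level of each member, as log2(signal + 1), on the 8 arrays for the probe set with the highest median signal of its gene. Points are arrays, black lines the mean of the 2 technical replicates, orange GFP-RFP+, blue GFP+RFP+, circles lymph node (LN) and squares spleen (SP), and every panel spans the same number of log2 units. The Pmaip1 panel shows the GFP-RFP+ arrays from 9.64 to 10.29 and the GFP+RFP+ arrays from 7.67 to 8.11, while the points for Bax lie between 8.94 and 9.19.

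All 5 Bcl2 probe sets were called present on all 8 arrays. The probe set 1457687_at read 10.60 and 10.68 in lymph node GFP-RFP+ cells, 11.01 and 11.03 in lymph node GFP+RFP+ cells, 10.35 and 10.18 in spleen GFP-RFP+ cells, and 11.10 and 11.07 in spleen GFP+RFP+ cells. The 4 GFP+RFP+ arrays were above the 4 GFP-RFP+ arrays without overlap, and the same held for each of the other 4 Bcl2 probe sets. Over all probe sets, 7.42% had the GFP+RFP+ arrays above without overlap. For 1457687_at the mean difference was 0.60 ± 0.17 log2 units (SE of the averaged fit, limma adjusted p = 0.29, and 0.020 with 8 separate arrays). The steepest of the 5, 1437122_at, rested on 9.05, 9.19, 8.70 and 8.64 in GFP-RFP+ cells and on 9.64, 9.77, 9.81 and 9.69 in GFP+RFP+ cells, a difference of 0.83 ± 0.19 (adjusted p = 0.26, and 0.0095 with 8 arrays). The probe sets of Bcl2 followed each other closely, with correlations of 0.93 to 0.99 for the 10 pairs over 8 arrays that include technical replicates.

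The Bcl2 difference was larger in spleen for all 5 probe sets, at 0.62 to 1.08 log2 units compared with 0.38 to 0.59 in lymph nodes. In GFP-RFP+ cells the spleen lay below the lymph nodes by 0.37 to 0.58 on the log2 scale, while in GFP+RFP+ cells the spleen value minus the lymph node value ran from -0.25 to 0.07. The interaction of population and organ did not pass for any Bcl2 probe set (limma, 8 arrays, adjusted p from 0.79 to 0.95), so a difference in effect between the organs was not shown.

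Promoters are shown for Bcl2 and Bcl2l11, the members with 5 probe sets each that were all present on all 8 arrays and all higher in GFP+RFP+ cells. The windows run from 250 bases before to 50 bases after the outermost annotated start, 5′ to 3′ on the gene's strand, from RefSeq on GRCm38.p6. The Bcl2 window is chr1:106714241-106714540 on the minus strand and the Bcl2l11 window is chr2:128125788-128126087 on the plus strand. Capitals mark matches on either strand to GGGCGG (GC box) and GTAAACA (a core bound by FOXO factors).
Bcl2: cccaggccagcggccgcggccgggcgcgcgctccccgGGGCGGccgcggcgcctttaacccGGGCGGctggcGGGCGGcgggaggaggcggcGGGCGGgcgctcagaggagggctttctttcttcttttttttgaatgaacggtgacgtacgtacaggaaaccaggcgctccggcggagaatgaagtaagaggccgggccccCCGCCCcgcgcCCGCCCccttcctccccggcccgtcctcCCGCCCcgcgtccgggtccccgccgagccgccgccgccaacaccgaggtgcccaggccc
Bcl2l11: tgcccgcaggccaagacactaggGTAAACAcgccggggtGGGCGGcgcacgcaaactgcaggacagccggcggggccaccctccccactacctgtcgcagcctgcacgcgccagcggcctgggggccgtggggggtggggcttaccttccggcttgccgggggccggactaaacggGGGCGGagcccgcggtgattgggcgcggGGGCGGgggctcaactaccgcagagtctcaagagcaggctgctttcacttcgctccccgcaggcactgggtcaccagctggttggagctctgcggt
The Bcl2 window held 7 GC boxes and the Bcl2l11 window 3, and 35.7% of 32851 promoter windows of this length held at least 1. The Bcl2l11 window had 1 match to GTAAACA, near its 5′ end, and the Bcl2 window had none, against 3.65% of all windows with a match. Neither window held TGACGTCA (cAMP response element), found in 1.79% of windows, or CACGTG (E-box), found in 7.15%. No match overlapped another motif. Both windows were rich in G and C, at 76.0% and 71.0%, compared with a median of 52.7% over all windows. These are matches of letters, and no factor binding was measured.

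Mcl1, a pro-survival protein that Noxa binds, was called present on all 8 arrays by 5 of its 6 probe sets, and the other, 1456243_x_at, was present on 7 and marginal on 1. The brightest, 1448503_at, read 12.21, 12.25, 12.14 and 12.10 in GFP-RFP+ cells and 11.92, 11.95, 11.92 and 11.91 in GFP+RFP+ cells, a difference of -0.25 ± 0.11 (limma adjusted p = 0.38, and 0.055 with 8 arrays). The probe set 1456381_x_at went the other way, with 10.61, 10.68, 10.40 and 10.37 in GFP-RFP+ cells and 10.90, 10.91, 10.88 and 10.86 in GFP+RFP+ cells, a difference of 0.37 ± 0.13 (adjusted p = 0.32, and 0.028 with 8 arrays). In both probe sets the populations did not overlap, yet the order of the populations was opposite. In all, 2 of the 6 had the GFP+RFP+ arrays below the GFP-RFP+ arrays without overlap (12% of all probe sets) and 3 had them above (7.42%).

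The 6 Mcl1 probe sets fell into a set of 4 and a set of 2 by direction. 1448503_at and 1416881_at were lower in GFP+RFP+ cells and correlated with each other at 0.90 over the 8 arrays. 1416880_at, 1437527_x_at, 1456243_x_at and 1456381_x_at were higher and correlated among themselves at 0.78 to 0.997. Across the 2 sets the correlations were -0.27 to -0.80. The 3 probe sets whose names end in _x_at, which marks probes that may also bind other transcripts, were all in the set that was higher. Differences were small in both sets, with a range over arrays of 0.26 to 0.57 log2 units, and no direction is given for Mcl1 as a gene. Quantile normalization reduced the differences of 1448503_at and 1416881_at to -0.08 and -0.10. It raised those of the other 4, to 0.22 in 1416880_at, 0.38 in 1437527_x_at, 0.41 in 1456243_x_at and 0.45 in 1456381_x_at.

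**Figure D2:**
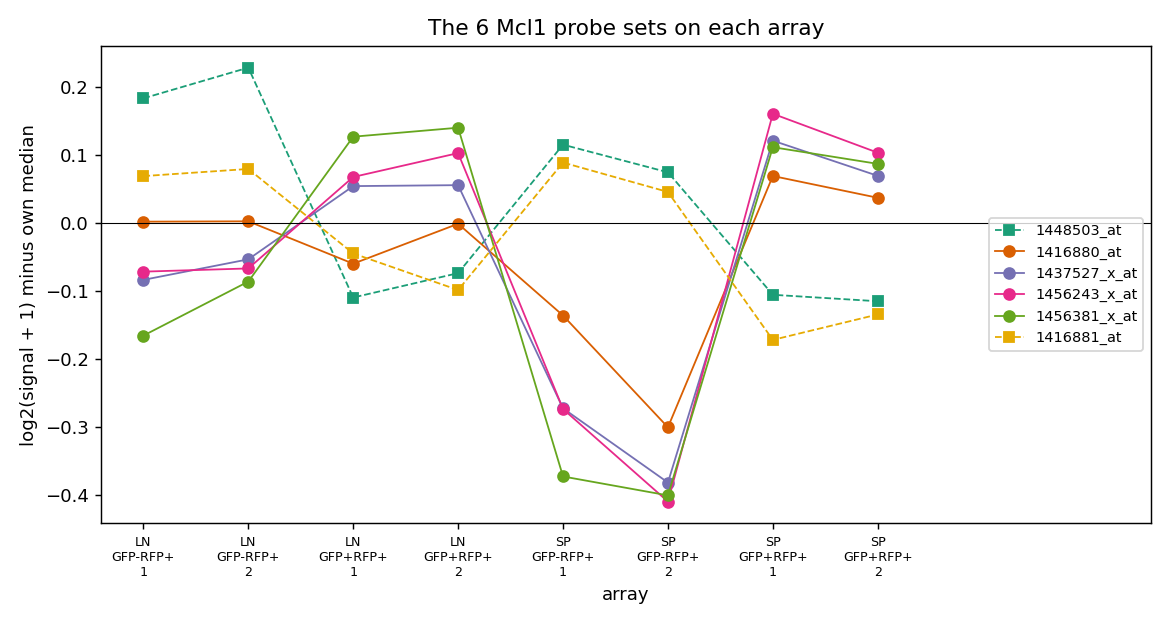
Each of the 6 Mcl1 probe sets on the 8 arrays, as log2(signal + 1) minus its own median; lines only join the points of 1 probe set. Dashed lines with squares are the 2 probe sets lower in GFP+RFP+ cells and solid lines with circles the 4 that were higher, and these 4 have their lowest points, down to 0.41 below the median in 1456243_x_at, in spleen GFP-RFP+ cells.

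Bcl2l1 was read reliably by 1 of its 4 probe sets. 1420888_at was present on all 8 arrays and gave 8.59 and 8.70 in lymph node GFP-RFP+ cells, 8.34 and 8.48 in lymph node GFP+RFP+ cells, 8.23 and 8.40 in spleen GFP-RFP+ cells, and 8.13 and 8.12 in spleen GFP+RFP+ cells. The populations overlapped across organs, although within each organ the GFP+RFP+ arrays were the lower pair. The difference was -0.21 ± 0.11 (limma adjusted p = 0.42, and 0.15 with 8 arrays). The other 3 probe sets were present on 2, 2 and 0 arrays, with technical replicates up to 1.55 log2 units apart, and give no usable direction. The spleen minus lymph node difference of 1420888_at was -0.31 (limma organ adjusted p = 0.64, and 0.22 with 8 arrays).

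The pore-forming effectors varied little. Bax read 9.16, 9.09, 9.19 and 9.01 in GFP-RFP+ cells and 9.02, 8.99, 8.94 and 9.05 in GFP+RFP+ cells, lymph node arrays before spleen arrays. The groups overlapped, and the difference of -0.11 ± 0.11 (limma adjusted p = 0.63) had a 95% interval from -0.48 to 0.25 in the averaged fit. Its range over the 8 arrays, 0.25 log2 units, was the smallest among the 31 member probe sets. Bak1, by 1418991_at, was present on all 8 arrays, between 6.15 and 6.61, with technical replicates up to 0.40 apart. Its population difference of 0.14 ± 0.15 had an interval from -0.35 to 0.63 and ran from 0.04 to 0.24 when 1 array was left out. The other Bak1 probe set was present on 1 array.

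Among the BH3-only genes, Pmaip1 had the largest difference and the largest range of all members. Its probe set, 1418203_at, was present on all 8 arrays and read 9.74 and 9.64 in lymph node GFP-RFP+ cells, 7.67 and 7.82 in lymph node GFP+RFP+ cells, 10.07 and 10.29 in spleen GFP-RFP+ cells, and 7.92 and 8.11 in spleen GFP+RFP+ cells. The lowest GFP-RFP+ array was thus 1.53 log2 units above the highest GFP+RFP+ array, while technical replicates differed by at most 0.22. Of all probe sets, 12% had the GFP+RFP+ arrays below without overlap. Pmaip1 was 3.85-fold lower in GFP+RFP+ cells of lymph nodes and 4.48-fold lower in those of spleen. The mean difference was -2.05 ± 0.13 (limma adjusted p = 0.25, and 0.00039 with 8 arrays). The first of these was the smallest adjusted p in the averaged fit, but other probe sets shared it, those of Fasl among them. By the size of the mean difference Pmaip1 ranked 71 among the 17476 probe sets present on all 8 arrays. The organs differed less, with spleen above lymph nodes by 0.38 (limma organ adjusted p = 0.63, and 0.24 with 8 arrays).

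Bcl2l11 was present on all 8 arrays by each of its 5 probe sets, and all 5 were higher in GFP+RFP+ cells. 1435448_at read 7.84, 7.90, 7.54 and 7.67 in GFP-RFP+ cells and 8.41, 8.47, 8.42 and 8.37 in GFP+RFP+ cells, a difference of 0.68 ± 0.13 (limma adjusted p = 0.25, and 0.0045 with 8 arrays). 1456005_a_at, the brightest, read 8.72, 8.77, 8.59 and 8.48 against 9.11, 9.09, 8.91 and 8.93, a difference of 0.37 ± 0.11 (adjusted p = 0.29, and 0.016 with 8 arrays). In these 2 probe sets the GFP+RFP+ arrays were above without overlap, as in 7.42% of all probe sets. In the other 3, with differences of 0.15 to 0.22, the populations overlapped. That of 1426334_a_at ran from 0.0054 to 0.29 when 1 array was left out. The 10 pairs of Bcl2l11 probe sets correlated at a median of 0.67 over the 8 arrays, and the lowest, at -0.08, involved the dim 1426334_a_at, whose technical replicates were up to 0.56 apart.

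Bbc3, the gene of Puma, was present on all 8 arrays and read 7.90, 8.01, 7.86 and 8.36 in GFP-RFP+ cells and 8.09, 8.30, 7.93 and 7.93 in GFP+RFP+ cells. The populations overlapped, and the difference was 0.03 ± 0.17 with a 95% interval from -0.53 to 0.60. A gap of 0.50 between the 2 spleen GFP-RFP+ arrays was as wide as the whole range of Bbc3. Bid, which links death receptors to the mitochondrion, was present on all 8 arrays by 1417045_at, between 7.36 and 7.78, with a population difference of 0.05 ± 0.11 and an interval from -0.33 to 0.43. Its other probe sets were present on 5 and 6 arrays. Bmf, whose protein is held on the motor complexes of the cytoskeleton until released, was called present by 1454880_s_at on 7 arrays, between 6.05 and 6.32, and by the other 2 probe sets on none. It was the member without any probe set present on all 8 arrays.

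**Figure D3:**
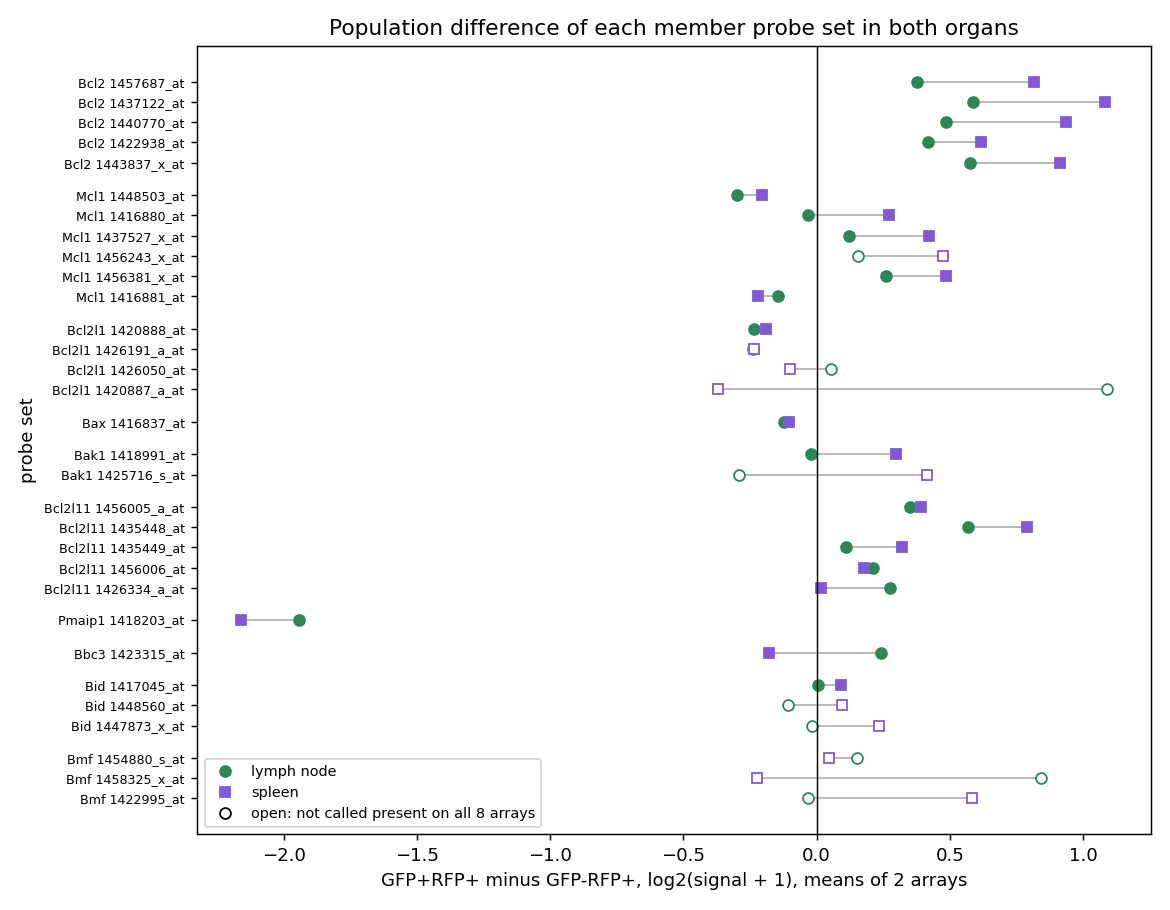
Difference between GFP+RFP+ and GFP-RFP+ cells, in log2(signal + 1) and from the means of 2 arrays, for each of the 31 member probe sets; circles are lymph node, squares spleen, and open symbols probe sets not present on all 8 arrays. Pmaip1 lies at -1.94 and -2.16, the 5 Bcl2 probe sets lie between 0.38 and 1.08, and the Mcl1 probe sets fall on both sides of 0.

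By detection call, 21 of the 31 member probe sets were present on all 8 arrays, compared with 38.8% of all probe sets, and 9 of the 10 genes had such a probe set. Calls were read over the 8 arrays as unlabelled arrays, so they are not divided by group. The 3 probe sets absent on all 8 were 2 of Bmf and 1 of Bcl2l1. The range over arrays had a median of 0.54 log2 units over the 21 members present on all 8 arrays and of 0.48 over all 17476 such probe sets. Pmaip1, at 2.62, exceeded the 99th percentile of these probe sets, 2.39, while the highest of the Bcl2 probe sets, at 1.29, lay below their 95th percentile of 1.37. The median population difference was 0.15 over the 31 member probe sets and -0.01 over all probe sets. The first of these is not a median over genes, because Mcl1 enters with 6 probe sets and Bcl2 and Bcl2l11 with 5 each.

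**Figure D4:**
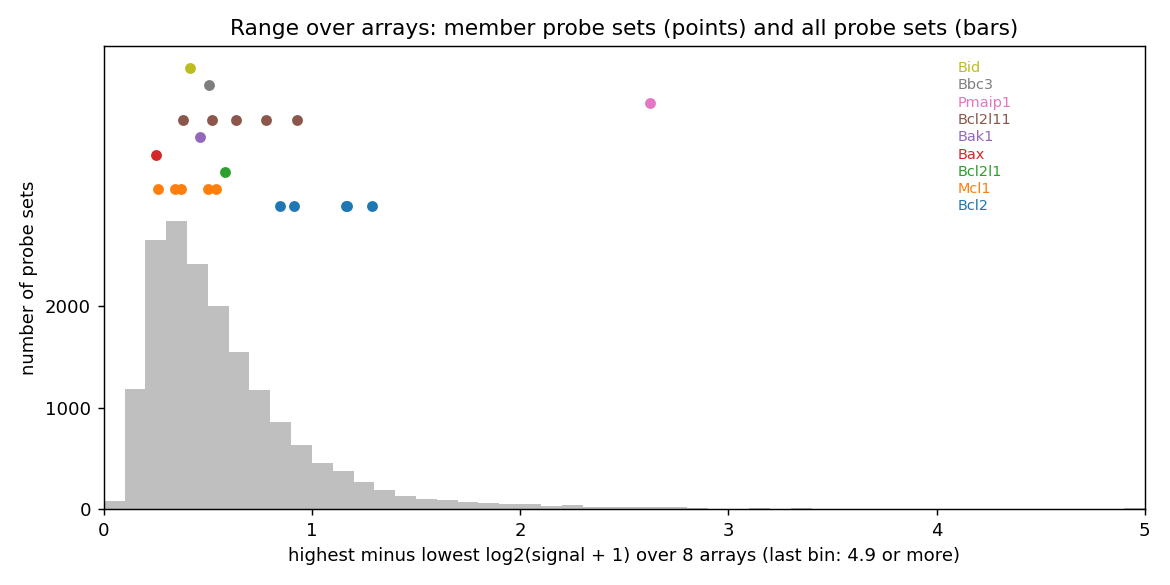
Highest minus lowest log2(signal + 1) over the 8 arrays for the 21 member probe sets present on all 8 (points, 1 row per gene at arbitrary height) above the counts of all 17476 such probe sets (bars). Pmaip1, at 2.62, stands to the right of the other members, and Bax, at 0.25, is the lowest.

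Between organs, no member probe set passed in the averaged fit (limma, smallest adjusted p = 0.60; 0% of 45037 probe sets passed, 3649 or 8.1% at an unadjusted p of 0.05, of which 1 was a member) or with 8 separate arrays (smallest adjusted p = 0.22; 0.777% of all passed). No member had the 4 spleen arrays above or below the 4 lymph node arrays without overlap, compared with 2.84% and 1.88% of all probe sets. The interaction passed for no member (smallest adjusted p = 0.68) and for 1 probe set in all (0.00222%), 1427866_x_at, which carries no gene name and was looked at after its value was seen, and 2597 (5.77%) had an unadjusted p under 0.05. Without overlap, the population difference was opposite in the 2 organs for 1 member probe set (3.88% of all), of Mcl1, and the organ difference was opposite in the 2 populations for 4 (5.2% of all), 3 of Mcl1 and 1 of Bcl2.

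The balance of pro-survival and pro-death members was read only as a shift between arrays, from the log2 difference of 2 probe sets on the same array. Bcl2 minus Pmaip1 shifted by 2.32 log2 units toward Bcl2 in GFP+RFP+ cells of lymph nodes and by 2.98 in spleen. Mcl1 minus Pmaip1, with the brightest Mcl1 probe set, shifted by 1.65 and 1.96 in the same direction. Bcl2 minus Bcl2l11 shifted by 0.03 in lymph nodes, and by 0.42 in spleen with the brightest probe set of each gene. Over the 25 pairs of probe sets of these genes the shift ran from -0.19 to 0.47 in lymph nodes and from -0.18 to 1.07 in spleen, so its direction depends on the probe sets read. Mcl1 minus Bcl2l11 shifted by -0.65 and -0.60 with the brightest probe sets, and over 30 pairs from -0.87 to 0.15 and from -1.01 to 0.47. Against Pmaip1 every probe set of Bcl2 and Mcl1 shifted toward the pro-survival member, by at least 1.65 in lymph nodes and 1.94 in spleen. Pmaip1 itself differed by -1.94 and -2.16, and no Bcl2 or Mcl1 probe set was lower by more than 0.30. The 1 probe set of Pmaip1 thus fixed the direction of all these pairs, and their agreement adds nothing to its own difference. The mean of the 3 pro-survival members minus the mean of the 7 pro-death members was higher in GFP+RFP+ cells by 0.14 in lymph nodes and 0.37 in spleen, with a technical SD of 0.064. Without Pmaip1 the same shifts were -0.15 and 0.05, with a technical SD of 0.065. With these probe sets the direction in lymph nodes thus rested on Pmaip1, and the shift left in spleen was below the technical SD. Each gene entered by its brightest probe set, which for Mcl1 is 1 of the 2 that were lower in GFP+RFP+ cells, while 4 were higher. The population differences of those 4 were -0.03 to 0.26 in lymph nodes and 0.27 to 0.49 in spleen. For the brightest they were -0.30 and -0.21. Any of the 4 in its place would raise the shift without Pmaip1, which thus depends on the Mcl1 probe set read. The shift was not recomputed with them.

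**Figure D5:**
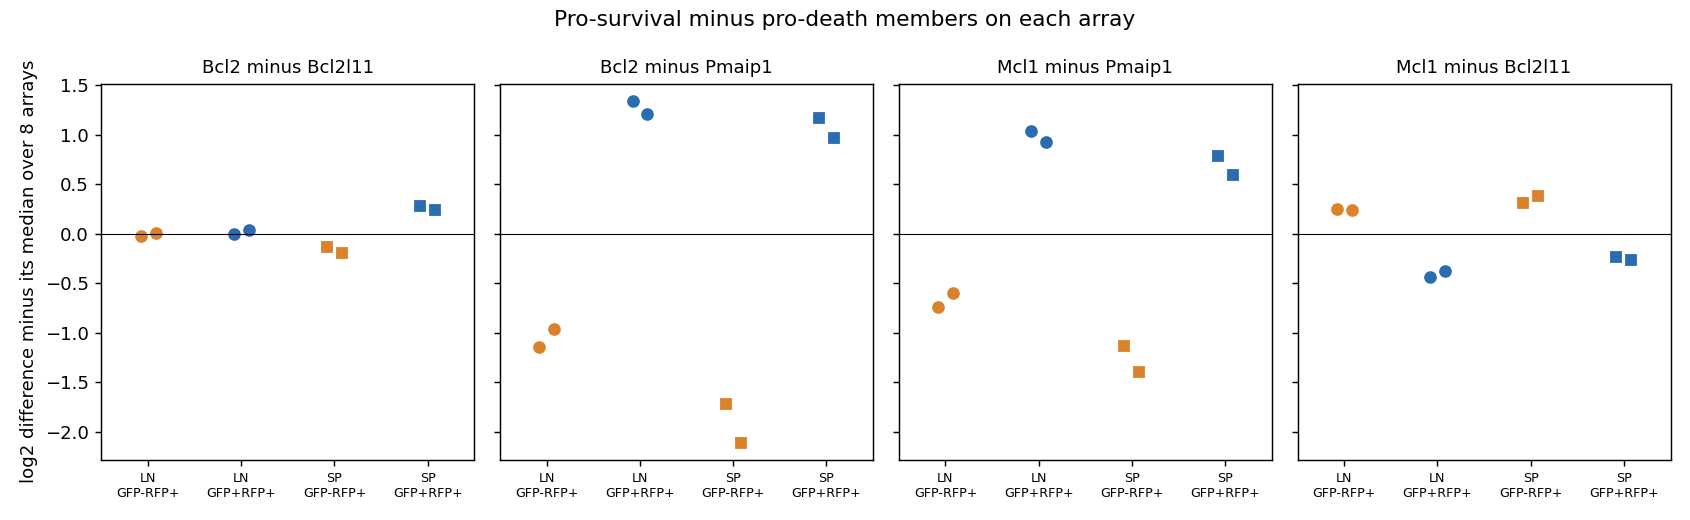
Log2 difference of a pro-survival and a pro-death member on each array, minus its median over the 8 arrays, for 4 pairs of genes; orange is GFP-RFP+, blue GFP+RFP+, circles lymph node and squares spleen. Both differences against Pmaip1 separate the populations, from -2.11 to 1.34 for Bcl2, while Bcl2 minus Bcl2l11 stays between -0.19 and 0.28. Mcl1 minus Bcl2l11, with the brightest probe set of each gene, separates them in the opposite order. It runs from 0.38 on a spleen GFP-RFP+ array to -0.44 on a lymph node GFP+RFP+ array.

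Other genes of the pathway were read from lists, 1 probe set per gene, and none of their members passed in the averaged fit. Of 12 other BCL2 family genes with a probe set of their own, 6 were present on all 8 arrays, and with 8 separate arrays 1 was higher in GFP+RFP+ cells and 1 lower (3.26% and 7.46% of all probe sets), with a median difference of 0.09. These were Bcl2l2, whose protein Bcl-w promotes survival, by 0.48 ± 0.11 (limma adjusted p = 0.26, and 0.031 with 8 arrays), and Bcl2l15, by -0.67 ± 0.16 (adjusted p = 0.26, and 0.015). The 3 Bcl2a1 copies, Bcl2a1a, Bcl2a1b and Bcl2a1d, have no probe set assigned to 1 of them alone and were not read.

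Among the 15 genes read of the apoptosome, caspases and their inhibitors, all present on all 8 arrays, 3 were lower in GFP+RFP+ cells with 8 separate arrays (7.46% of all probe sets) and none higher (3.26%), with a median difference of 0.04. Birc5, the gene of survivin, an inhibitor of apoptosis also needed for cell division, had a difference of -0.67 ± 0.11 (limma adjusted p = 0.25, and 0.0055 with 8 arrays). Apaf1, which forms the apoptosome with cytochrome c, differed by -0.39 ± 0.12 (adjusted p = 0.30, and 0.035 with 8 arrays), and its dimmer probe set by -0.44 without passing. The other lower gene was Birc2, at -0.33, an inhibitor of apoptosis.

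In the death receptor pathway, 2 of 9 genes were lower in GFP+RFP+ cells with 8 arrays (7.46% of all probe sets) and the median difference was -0.07. Fasl, the ligand of Fas, read 7.49, 6.99, 7.46 and 7.26 in GFP-RFP+ cells and 4.76, 5.03, 4.96 and 4.92 in GFP+RFP+ cells, a difference of -2.38 ± 0.11 (limma adjusted p = 0.25, and 0.00048 with 8 arrays), and both of its probe sets gave this order. Tnfrsf1b, a receptor for tumour necrosis factor, differed by -0.60 ± 0.13 (adjusted p = 0.26, and 0.0075 with 8 arrays).

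Of 15 genes that feed into the family, 1 was higher (3.26% of all probe sets) and 2 lower (7.46%) with 8 arrays, with a median difference of 0.05. Il2ra, the interleukin 2 receptor chain CD25 used in the sort, was higher in GFP+RFP+ cells by 0.86 ± 0.22 (limma adjusted p = 0.27, and 0.016 with 8 arrays). Trp53, which encodes the p53 factor known to activate Pmaip1 and Bbc3, gave -1.41 ± 0.15 by its brightest probe set (adjusted p = 0.25, and 0.0037 with 8 arrays), but its 7 probe sets disagreed, 4 higher and 3 lower, and only that 1 passed. The other lower gene was Fbxw7, at -0.32, a ubiquitin ligase subunit that marks Mcl1 for degradation. Of the 8 markers of regulatory T cells, 2 were higher (3.26% of all probe sets) and 2 lower (7.46%) in GFP+RFP+ cells with 8 arrays. The median difference of the 8 markers was -0.16. Besides Il2ra, Foxp3 was higher by 0.57 (limma adjusted p = 0.25, and 0.011 with 8 arrays). Ctla4, an inhibitory receptor, differed by -1.45 (adjusted p = 0.25, and 0.00038 with 8 arrays) and Cd4 by -0.48 (adjusted p = 0.26, and 0.0083 with 8 arrays). Cd3e and Cd3g, of the T cell receptor complex, had the GFP+RFP+ arrays below without overlap, as did 12% of all probe sets. Their differences were -0.27 and -0.29 and did not pass.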

How the data were processed

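Sorted regulatory T cells of 4 groups were measured on 8 Affymetrix Mouse430_2 arrays. The deposited intensity values are dChip model-based expression per the file headers, normalized to a baseline array and not log transformed; the submitters' processing notes name RMA instead. A second deposited table, with columns named by sample, holds the same intensity values: each of its 8 columns equals exactly 1 of the 8 dChip signal columns over all 45101 probe sets. Groups were taken from this table alone. The dChip columns, with their 8 columns of detection calls, match no label by name and were used only as unlabelled arrays.

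Of 45101 probe sets, 64 controls were left out. Values were taken as log2(signal + 1). The added 1 makes differences of dim probe sets smaller than they would be without it, yet dim probe sets still varied more. The range over arrays had a median of 1.57 log2 units for probe sets absent on all 8 arrays and of 0.48 for those present on all 8. The arrays of a group were averaged, and limma 3.58.1 (R 4.3.3) fitted population and organ to the 4 means for all 45037 probe sets, with Benjamini-Hochberg adjustment and a threshold of 0.05. The interaction, which these 4 means cannot give, was fitted on 8 arrays. Fits were tested on simulated data. Every member is named, each gene being represented by its probe set of highest median signal; of other lists, the 2 genes with the largest population difference are named, and genes added because they passed with 8 arrays were chosen after their values were seen. The members and lists were chosen with earlier results of these data known. A gene of the other lists is not reported here. No depth applies to arrays: their number limits the precision. Figures used Python 3.11.15 with matplotlib 3.10.9. Alternatives were other normalizations, filters, priors and pseudocounts, separate arrays, a replicate block and each array left out.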

Additional observations from a re-analysis of the deposited data

Results flagged for a closer look

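Some probe sets moved one way in every array of one group and the other way in every array of another, and limma's interaction on 8 arrays passed for none of them. Mcl1 1416880_at had a population difference of -0.033 in lymph nodes and 0.27 in spleen (adjusted p = 0.92). Of all probe sets, 3.88% were opposite between organs in this way. The spleen minus lymph node difference was opposite in the 2 populations for 4 member probe sets, as for 5.2% of all. It was -0.37 in GFP-RFP+ and 0.07 in GFP+RFP+ cells for Bcl2 1457687_at (adjusted p = 0.82), and -0.22 and 0.08 for Mcl1 1416880_at (0.92). For Mcl1 1437527_x_at it was -0.26 and 0.04 (0.90), and for Mcl1 1456243_x_at -0.27 and 0.05 (0.89).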

How the results depend on the processing

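The number of calls depended on the fit. Averaging gave 0 population calls among all probe sets and 0 among members, and so did quantile normalization, median centring, restriction to single identifiers and leaving out each array (0 to 0). Population calls among all probe sets and member probe sets were 4829 and 9 with 8 separate arrays without the replicate block, 3799 and 8 with it, and, with the arrays still averaged, 2541 and 3 without the lowest 40% by level, 6849 and 13 with a trended robust prior, and 6026 and 9 with log2(value + 32). Bcl2 1443837_x_at, Bcl2l11 1435448_at and Pmaip1 1418203_at passed in all 5 of these. Organ calls, 0 in the averaged fit, were 350, 196, 127, 789 and 473 in the same 5, with 1 member, Pmaip1, under the trended prior. The block dropped Mcl1 1456381_x_at (adjusted p = 0.054) and changed no other member call. The technical replicate numbers did not pair the arrays: deviations correlated at -0.053 to 0.017 over 6 pairs of groups. The median range over arrays was 0.64 and became 0.36 with log2(signal + 32). The pro-survival minus pro-death shift of 0.14 (lymph node) and 0.37 (spleen) became 0.42 and 0.49 with the mean of all probe sets of a gene, and -0.15 and 0.048 without Pmaip1, an alternative chosen after seeing the data.

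Population differences of Bcl2, Bcl2l11, Pmaip1 and every Mcl1 probe set kept their sign under each alternative; for Pmaip1 they ran from -2.11 to -1.92. Of the 31 differences, 18 moved by over 1.5 times or turned under some alternative, among them Mcl1 1448503_at (-0.26 to -0.077), 1416881_at (-0.20 to -0.10) and 1416880_at (0.078 to 0.22), Bcl2l11 1426334_a_at (0.0054 to 0.29), Bak1 1418991_at (0.039 to 0.24) and Bcl2l1 1420888_at (-0.26 to -0.13), but none of Bcl2 or Pmaip1. Small ones turned when an array was left out: Bcl2l1 1426191_a_at (-0.47 to 0.00084), 1426050_at (-0.41 to 0.37, and 0.0087 with log2(value + 32)), Bak1 1425716_s_at (-0.19 to 0.32), Bid 1417045_at (-0.024 to 0.12), 1447873_x_at (-0.064 to 0.28) and 1448560_at (-0.12 to 0.11, with 0.072 after quantile normalization and 0.016 after centring), and Bbc3 (-0.094 to 0.16). Organ differences turned for Bax (-0.066 to 0.028), Bak1 1418991_at (-0.040 to 0.16) and Bbc3 (-0.18 to 0.073). The causes were not tested.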
